A study of Mus musculus with 4 samples.

Results

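Flavin-containing monooxygenases and other enzymes that handle foreign chemicals were described through 9 genes in the mouse inferior vena cava, the large vein that drains the lower body. They were Fmo1, Fmo2 and Fmo5 (flavin monooxygenases), Cyp1b1 (a cytochrome P450), Aldh1a1 and Aldh1a2 (retinaldehyde dehydrogenases), Ephx1 (an epoxide hydrolase), Gstm1 (a glutathione S-transferase) and Inmt (a small-molecule methyltransferase). Each gene was read from the probe set whose platform annotation gives its symbol alone. For a gene with several such probe sets, the brightest by its mean over the arrays was taken. All 9 had a probe set, among 18820 genes with one, and all 9 were among the 14115 genes kept after the filter on dim genes. The 9 genes were chosen with measured values of these same arrays in view, so their values are a description and no test was made on them.

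The study set venous thrombosis by stasis in mice without Cd39 against the same surgery in wild type mice. Cd39 is the ectonucleotidase encoded by Entpd1, which breaks down ATP and ADP outside cells. There were 4 groups, namely Cd39-null veins ligated for 48 h, Cd39-null veins after sham surgery, wild type veins ligated for 48 h and wild type veins after sham surgery, in which the vein was dissected and not tied. All mice were of C57BL/6J background after at least 8 generations of backcrossing, and were 8 to 10 weeks old. RNA of 4 mice was pooled for each group and each pool was hybridised to 1 Affymetrix whole-transcript array. With 1 array per group no spread between mice can be had, so no difference below carries an error or a p-value. Mice of either sex and both complete and partial ligations were used, and the labels assign neither to a pool. Nor do they state if clot material went into the extracted RNA.

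Flavin monooxygenases use NADPH and oxygen to oxidise nitrogen and sulfur atoms in drugs and dietary amines. Cytochromes P450 also add oxygen, epoxide hydrolases open the reactive epoxides this can leave, and glutathione S-transferases and methyltransferases attach small groups that change how a compound is cleared. Many of these enzymes also have substrates made by the body: retinaldehyde dehydrogenases make retinoic acid, and Cyp1b1 acts on oestradiol, retinoids and fatty acids. Liver is the best known site of this chemistry, but lung, kidney and vessel walls carry forms of their own.

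The deposited values are log2 expression values, so a difference of 1 is 2-fold. Entpd1 went against the label of an array. It read 6.14 on the array labelled Cd39-null, ligated, 4.16 on the Cd39-null sham array, 6.17 on the wild type ligated array and 7.11 on the wild type sham array. Cd39-null was thus 7.73-fold lower than wild type after sham surgery, and only 0.03 lower on the log2 scale after ligation. Platelet markers were also high on the array labelled Cd39-null, ligated, as given below. Results are therefore given for that array against the Cd39-null sham array (the Cd39-null pair) and, without it, for the wild type ligated against the wild type sham array (the wild type pair). All 8 smooth muscle and all 10 endothelial markers were above background on all 4 arrays, where background is the 95th percentile of 1006 olfactory receptor probe sets, at 2.66 to 2.97. Of 9 hepatocyte markers with a probe set, 6 or 7 per array were at or under it, as were 5 of 8 adrenal and 8 or 9 of 10 kidney tubule markers.

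Ligated veins read lower than sham veins for Fmo1, Fmo2, Ephx1 and Inmt by at least 2-fold in both pairs. Gstm1 and Aldh1a1 were lower in both pairs too, by at least 2-fold in the wild type pair and by less in the Cd39-null pair. Cyp1b1 and Aldh1a2 ran the other way, higher after ligation in both pairs, and Fmo5 differed little among the arrays. In pooled tissue, fewer cells of a type and less RNA per cell cannot be told apart.

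Promoter windows of these genes differed widely in CG content. RefSeq windows (GRCm38.p6) of 250 bases before to 50 after a start site matched 8 of the 9 genes, all but Fmo1. Shown are Fmo2 and Ephx1, which were low together on the array labelled Cd39-null, ligated, Inmt, which had the largest wild type difference of the 9, and Cyp1b1 and Aldh1a2, which were higher after ligation. Each is written 5′ to 3′ on the gene's strand, with CG dinucleotides in capitals.
Fmo2, chr1:162898709-162899008, minus strand: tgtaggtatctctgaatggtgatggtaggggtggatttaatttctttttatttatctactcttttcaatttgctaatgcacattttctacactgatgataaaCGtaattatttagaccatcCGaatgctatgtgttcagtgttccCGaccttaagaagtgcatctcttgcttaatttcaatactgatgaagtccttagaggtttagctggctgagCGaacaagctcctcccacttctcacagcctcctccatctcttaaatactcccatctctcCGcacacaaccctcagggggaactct
Ephx1, chr1:181017520-181017819, minus strand: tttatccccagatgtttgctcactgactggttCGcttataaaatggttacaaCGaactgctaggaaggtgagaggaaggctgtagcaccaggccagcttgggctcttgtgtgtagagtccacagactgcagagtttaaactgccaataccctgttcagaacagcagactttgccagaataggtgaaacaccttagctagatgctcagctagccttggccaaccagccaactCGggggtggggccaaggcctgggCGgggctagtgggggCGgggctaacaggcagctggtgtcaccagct
Inmt, chr6:55174941-55175240, minus strand: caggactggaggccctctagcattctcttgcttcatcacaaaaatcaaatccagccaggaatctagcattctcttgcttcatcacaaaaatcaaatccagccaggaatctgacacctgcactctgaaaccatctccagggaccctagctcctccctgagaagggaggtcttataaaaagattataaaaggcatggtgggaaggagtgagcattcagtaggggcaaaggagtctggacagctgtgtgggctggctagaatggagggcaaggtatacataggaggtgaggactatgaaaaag
Cyp1b1, chr17:79715012-79715311, minus strand: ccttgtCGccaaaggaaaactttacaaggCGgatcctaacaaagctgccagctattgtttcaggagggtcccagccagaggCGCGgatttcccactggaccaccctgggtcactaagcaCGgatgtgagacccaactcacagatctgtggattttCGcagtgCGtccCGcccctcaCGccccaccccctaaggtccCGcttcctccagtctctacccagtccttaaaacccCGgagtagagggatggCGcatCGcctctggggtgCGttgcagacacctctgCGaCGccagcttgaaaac
Aldh1a2, chr9:71215539-71215838, plus strand: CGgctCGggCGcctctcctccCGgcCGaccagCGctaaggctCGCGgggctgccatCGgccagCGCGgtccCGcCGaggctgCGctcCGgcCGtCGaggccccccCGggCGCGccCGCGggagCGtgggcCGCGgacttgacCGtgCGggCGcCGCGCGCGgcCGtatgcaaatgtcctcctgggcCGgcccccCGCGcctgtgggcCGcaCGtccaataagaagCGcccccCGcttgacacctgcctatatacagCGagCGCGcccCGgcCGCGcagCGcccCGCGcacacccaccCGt

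The Inmt window held 0 CG dinucleotides, and those of Fmo2 and Ephx1 held 5 each. Cyp1b1 had 16 and Aldh1a2 had 50, more than 67.0% and 99.1% of the 32851 windows of all genes, whose median was 7. Low CG counts did not mark all genes that were lower after ligation, since the windows at each of 2 start sites of Gstm1 held 14 and 8. Of the others, Fmo5 held 10 and the windows of Aldh1a1 held 3 and 1. The GCGTG core bound by the aryl hydrocarbon receptor was searched on both strands and lies in 32.4% of all windows. It had 1 match in the Cyp1b1 window and 1 in that of Aldh1a2. The windows of Gstm1 overlap, and the 1 match in each is the same site. No match lay in the windows of Fmo2, Fmo5, Aldh1a1, Ephx1 and Inmt. The antioxidant response core TGACNNNGC, on either strand, lies in 12.4% of all windows and matched only the Aldh1a2 window among these genes. TATAAA, on either strand, lies in 13.6% of windows and matched at 2 places in the Inmt window and at 1 each in those of Ephx1, Fmo5 and the second Gstm1 start. These matches describe letters and not sites in use.

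Fmo1, a flavin monooxygenase prominent in mouse liver, kidney and lung, is probe set 10359571. It read 5.05 on the array labelled Cd39-null, ligated, and 8.59 on the Cd39-null sham array, against 7.15 on the wild type ligated and 8.36 on the wild type sham array. Both sham arrays were close to each other and high, the wild type ligated array lay between, and the array labelled Cd39-null, ligated, stood well below the rest. The Cd39-null pair differed by -3.54 (11.6-fold lower after ligation), which placed Fmo1 as number 23 from the lowest of the 14115 genes. In the wild type pair the difference was -1.21 (2.31-fold lower), number 318 from the lowest.

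Fmo2, the flavin monooxygenase best known from lung, is probe set 10359582. Its values were 3.68 on the array labelled Cd39-null, ligated, 7.31 on the Cd39-null sham array, 5.97 on the wild type ligated array and 7.72 on the wild type sham array. The order of the ligated arrays was that of Fmo1, with the sham arrays highest. Ligated veins were lower by 12.3-fold in the Cd39-null pair (log2 difference -3.62, number 22 from the lowest) and by 3.34-fold in the wild type pair (-1.74, number 88). Fmo1 and Fmo2 were the most alike of the 36 pairs among the 9 genes, 0.56 apart in Euclidean distance between their 4 values after each gene was centred on its mean.

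Fmo5 (probe set 10494565), an unusual member of the family that inserts oxygen next to carbonyl groups, did not follow them. It read 4.26 on the array labelled Cd39-null, ligated, 4.48 on the Cd39-null sham array, 4.29 on the wild type ligated array and 4.15 on the wild type sham array. All 4 values lay within 0.33 of each other and above background. The ligation difference was -0.21 in the Cd39-null pair and 0.14 in the wild type pair. Fmo4, the other flavin monooxygenase kept after the filter, was at or under background on all 4 arrays, between 2.12 and 2.64. Fmo9 was too dim to be kept.

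Fmo1 and Fmo2 lie side by side on chromosome 1, with Fmo4 next to Fmo1 on the other side. Their neighbours at either end of the family's cluster were chosen by place in the gene order. Prrc2c, next to Fmo4, differed between ligated and sham veins by 0.41 in the Cd39-null pair and 0.30 in the wild type pair. Prrx1, at the other end, differed by 0.05 and 0.08. Neither neighbour shared the low ligated values of Fmo1 and Fmo2.

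Cyp1b1 (probe set 10453057), a cytochrome P450 that the aryl hydrocarbon receptor induces and that is found mostly outside the liver, was higher in ligated veins. It read 6.96 on the array labelled Cd39-null, ligated, 6.40 on the Cd39-null sham array, 7.21 on the wild type ligated array and 6.28 on the wild type sham array. Both ligated arrays lay above both sham arrays. The differences were 0.56 (1.48-fold higher) in the Cd39-null pair and 0.93 (1.91-fold higher) in the wild type pair, so neither reached 2-fold. They ranked number 3225 and number 1089 from the highest of 14115 genes, places that many genes share. A second, dimmer probe set of Cyp1b1 read 3.17, 2.74, 3.23 and 3.20 on the arrays in the same order, with differences of 0.43 in the Cd39-null pair and 0.03 in the wild type pair. The wild type difference was thus found by the brighter probe set and hardly by the dimmer.

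Aldh1a1 and Aldh1a2, which both turn retinaldehyde into retinoic acid, ran in opposite directions. Aldh1a1 (probe set 10461979) read 5.07 on the array labelled Cd39-null, ligated, 5.52 on the Cd39-null sham array, 4.63 on the wild type ligated array and 5.90 on the wild type sham array. Both ligated values lay below both sham values. The differences were -0.45 (1.37-fold lower) in the Cd39-null pair and -1.28 (2.43-fold lower) in the wild type pair, number 265 from the lowest in the second.

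Aldh1a2 (probe set 10586865), the form that makes most retinoic acid in the embryo, read 3.62 on the array labelled Cd39-null, ligated, 2.87 on the Cd39-null sham array, 4.46 on the wild type ligated array and 2.73 on the wild type sham array. Both sham values were at or under background, so the sham level is only a bound. Against background, ligated veins were at least 1.57-fold higher in the Cd39-null pair and at least 2.87-fold higher in the wild type pair. The measured differences of 0.76 and 1.73 run into background on the sham side and do not measure a fold.

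Ephx1, the microsomal epoxide hydrolase, is probe set 10360684. It read 3.53 on the array labelled Cd39-null, ligated, 6.12 on the Cd39-null sham array, 5.25 on the wild type ligated array and 7.09 on the wild type sham array. Ligated arrays were below sham arrays, and within each surgery the array labelled Cd39-null was the lower. The ligation difference was -2.59 (6.00-fold lower, number 62 from the lowest) in the Cd39-null pair and -1.84 (3.59-fold lower, number 69) in the wild type pair. Its profile lay closest to that of Fmo2 among the 9 genes, at 0.74.

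Gstm1 (probe set 10501229), a mu-class glutathione S-transferase that joins glutathione to electrophiles, read 6.99 on the array labelled Cd39-null, ligated, 7.88 on the Cd39-null sham array, 7.24 on the wild type ligated array and 8.64 on the wild type sham array. Both ligated values lay below both sham values. The differences were -0.89 (1.85-fold lower) in the Cd39-null pair and -1.40 (2.64-fold lower) in the wild type pair. Gstm1 lies in a row of mu-class genes on chromosome 3, and its kept neighbours there that were above background on all 4 arrays also read lower after ligation in both pairs, by less than 2-fold each. Gstm3 differed by -0.80 in the Cd39-null pair and -0.63 in the wild type pair, and Gstm2 by -0.67 and -0.63. Gstm7 differed by -0.27 and -0.49. Gstm4 was at or under background on 3 of the arrays, both wild type arrays among them, so its difference is not given. These genes are close copies and the probe sequences were not used here, so signal of a copy may be part of each value. Ampd2, the next gene beyond the row, differed by 0.62 and 0.11.

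Inmt (probe set 10544932), which methylates tryptamine and related amines, read 2.90 on the array labelled Cd39-null, ligated, 5.50 on the Cd39-null sham array, 2.93 on the wild type ligated array and 6.02 on the wild type sham array. The ligated arrays gave nearly the same value, just above their background of 2.68 and 2.66, and the sham arrays were far above theirs. The difference was -2.60 (6.06-fold lower, number 60 from the lowest) in the Cd39-null pair and -3.08 (8.48-fold lower, number 5) in the wild type pair. Of the 4 among the 9 genes that were at least 2-fold lower in both pairs, Inmt was the one with the larger difference in the wild type pair.

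**Figure D1:**
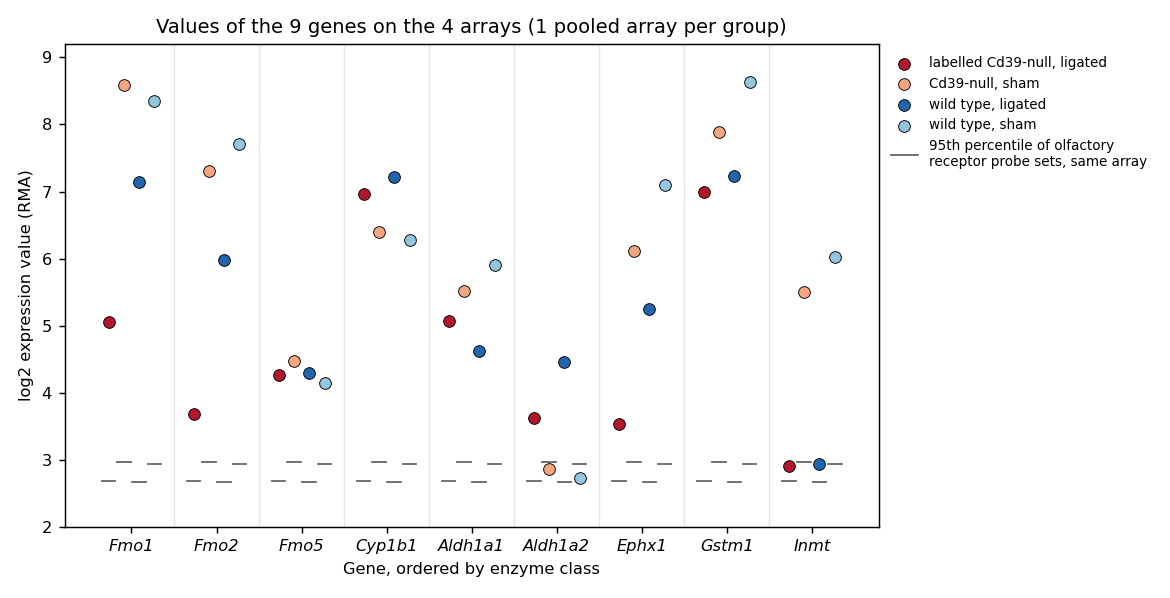
Deposited log2 values (vertical axis) of the 9 genes (horizontal axis, by enzyme class) on the 4 pooled arrays, 1 point per array, with short bars at each array's background, the 95th percentile of its olfactory receptor probe sets. Fmo1 and Fmo2 are lowest on the array labelled Cd39-null, ligated (5.05 and 3.68), Inmt is near background on both ligated arrays (2.90 and 2.93), and both sham values of Aldh1a2 lie under their bars (2.87 and 2.73).

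Counted together, 4 of the 9 genes were at least 2-fold lower and 0 at least 2-fold higher in the Cd39-null pair, where 5.8% of all genes kept were lower, 10.9% higher and 16.7% either by that much. In the wild type pair 6 were lower and 1 was higher, against 3.63% and 6.6% of all genes kept and 10.2% in either direction. The same 4 genes, Fmo1, Fmo2, Ephx1 and Inmt, were lower in both pairs, as were 1.45% of all genes kept. At any size, 6 of the 9 were below 0 in both pairs and 2 above 0, against 33.6% and 34.7% of all genes kept. Since these contrasts were in view when the genes were chosen, nothing is read from those shares. The median difference of the 9 genes was -0.89 in the Cd39-null pair and -1.28 in the wild type pair, beside 0.03 and -0.01 over all genes kept.

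**Figure D2:**
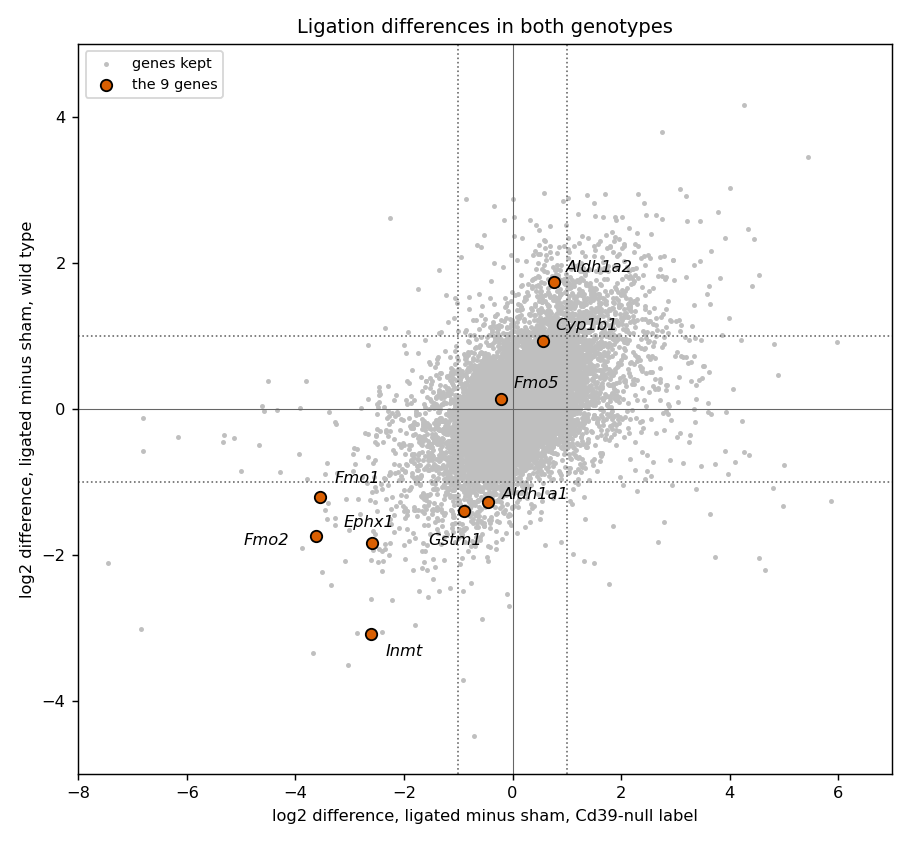
Log2 difference of ligated minus sham veins in the Cd39-null pair (horizontal axis) and the wild type pair (vertical axis), for the 14115 genes kept (grey) and the 9 genes (orange, named), with dotted lines at 2-fold. Fmo1, Fmo2, Ephx1 and Inmt lie in the lower left beyond both lines, while Aldh1a2 and Cyp1b1 lie in the upper right quadrant at 0.76 and 1.73, and at 0.56 and 0.93.

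Between genotypes after sham surgery, 0 of the 9 genes were 2-fold apart, where 6.48% of all genes kept were, 2.95% being higher and 3.54% lower. Ephx1 came nearest, at -0.98 (1.97-fold lower in Cd39-null), followed by Gstm1 at -0.76 and Inmt at -0.52. Fmo2 differed by -0.41, Aldh1a1 by -0.38, Fmo5 by 0.33, Fmo1 by 0.23, Cyp1b1 by 0.12 and Aldh1a2 by 0.14, the last between values at or under background. The median of the 9 was -0.38, beside -0.07 over all genes kept. With the mean of both Cyp1b1 probe sets in place of the brighter, the Cyp1b1 value turned to -0.17.

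Between the ligated arrays, the one labelled Cd39-null was at least 2-fold below wild type for 3 of the 9 genes and above it for 0, where 2.66% of all genes kept were lower, 3.61% higher and 6.27% either. Fmo2 was 4.89-fold lower (-2.29, number 20 from the lowest), Fmo1 4.29-fold lower (-2.10, number 34) and Ephx1 3.29-fold lower (-1.72, number 75). Aldh1a2 was lower by less, at -0.84. Cyp1b1 at -0.25, Gstm1 at -0.24, Inmt at -0.03 and Fmo5 at -0.02 were close on both arrays, and Aldh1a1 was higher at 0.44. These values rest on the array whose Entpd1 goes against its label, and no genotype difference after ligation can be given without it. Signs of the genotype difference were opposite in ligated and sham veins for 5 of the 9 genes, as for 45.6% of all genes kept, and for Aldh1a2 among them the sham sign comes from values at or under background.

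The ligation difference of the Cd39-null pair minus that of the wild type pair was -2.33 for Fmo1 and -1.88 for Fmo2. These were the 2 genes of the 9 past 2-fold, both lower, where 5.5% of all genes kept were lower, 6.99% higher and 12.5% either. For Aldh1a2 it was -0.98, from sham values at or under background, for Ephx1 -0.74, for Cyp1b1 -0.37 and for Fmo5 -0.35. For Aldh1a1 it was 0.82, for Gstm1 0.51 and for Inmt 0.48. Inmt read 2.90 and 2.93 on the ligated arrays, just above background, which limits how far below sham it could read in either pair. Of the 6 genes below sham in both pairs, Fmo1, Fmo2 and Ephx1 were further below it in the Cd39-null pair and Aldh1a1, Gstm1 and Inmt in the wild type pair, and only Fmo1 and Fmo2 passed 2-fold here. The sizes of the differences were not tested against each other.

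Markers of several cell types differed between the arrays with these genes, and their part in the values was not tested. The 8 platelet markers had a median difference of 3.97 in the Cd39-null pair and -1.17 in the wild type pair, with a summed linear level of 2551 for the array labelled Cd39-null, ligated, 244 for Cd39-null sham, 568 for wild type ligated and 854 for wild type sham. All 8 were above background on the array labelled Cd39-null, ligated. The 10 macrophage markers were higher after ligation, with medians of 1.20 in the Cd39-null pair and 2.05 in the wild type pair and sums of 1320, 463, 1581 and 368 in the same order. Macrophage markers were thus high on both ligated arrays, and platelet markers on the one labelled Cd39-null. The 9 neutrophil markers had medians of 0.95 in the Cd39-null pair and 0.06 in the wild type pair, and of 2.41 between the ligated arrays, where 8 of them were at least 2-fold higher on the one labelled Cd39-null. Their sums were 4131, 2603, 1075 and 1220. The 7 B and T cell markers had medians of -1.15 in the Cd39-null pair and -0.16 in the wild type pair, and were higher in Cd39-null than in wild type sham veins by a median of 1.99. They summed to 69.8, 246, 51.1 and 77.3, highest on the Cd39-null sham array.

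Among cells of the wall and its surroundings, the 11 adventitial fibroblast markers had medians of -0.81 in the Cd39-null pair and -0.19 in the wild type pair, and summed to 1299, 1867, 2102 and 1991. The 8 smooth muscle markers had medians of -0.48 and -0.29 and summed to 675, 1021, 1844 and 2438. Neither median passed 2-fold in either pair. By genotype, smooth muscle medians were -1.38 after sham surgery and -1.30 between the ligated arrays, lower on the arrays labelled Cd39-null. For fibroblast markers these were -0.18 and -0.32, and over all genes kept -0.07 and -0.03. The 10 endothelial markers had medians of -0.03 in the Cd39-null pair and -1.35 in the wild type pair. The first turned to 0.04 with the array medians aligned. Their genotype medians were -1.04 after sham surgery and -0.08 between the ligated arrays. The 5 Schwann cell and nerve markers had medians of -1.64 in the Cd39-null pair and -0.94 in the wild type pair. Their genotype medians were -0.05 after sham surgery and -1.08 between the ligated arrays. The 9 mesothelial markers kept had medians of 0.21 in the Cd39-null pair and 0.18 in the wild type pair. Of 10 with a probe set, 2, 4, 2 and 5 were at or under background on the arrays in the same order. Wt1 was higher in both pairs at 1.25 and 1.26, and Gpm6a was lower in both at -1.39 and -1.64.

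Fat markers stood out on the Cd39-null sham array. The 12 white and brown adipocyte markers with a probe set summed to 785, 3996, 1130 and 1221. The median of the 11 kept was -2.12 in the Cd39-null pair but -0.07 in the wild type pair. After sham surgery they were higher in Cd39-null than in wild type by a median of 1.44. Ucp1, the uncoupling protein of brown fat, read 9.71 on the Cd39-null sham array and 4.14 on the wild type sham array, and was at or under background on both ligated arrays. In the wild type pair 2 of the 11 adipocyte markers were at least 2-fold lower after ligation and 1 was higher. Over all genes kept, 3.63% were lower and 6.6% higher by that much. The lower ones were Ucp1 and Cox8b, a muscle and brown fat subunit of cytochrome oxidase. Cox8b read 3.43 on the wild type ligated array and 6.45 on the wild type sham array. The higher one was Cidec, at 1.15. With the wild type sham array in place of the Cd39-null sham array, Gstm1 was at -1.64 on the array labelled Cd39-null, ligated. Fmo1, Fmo2, Ephx1 and Inmt were again at least 2-fold lower there. That comparison crosses genotype and surgery, which cannot be told apart in it. The part of fat in these values was not tested.

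**Figure D3:**
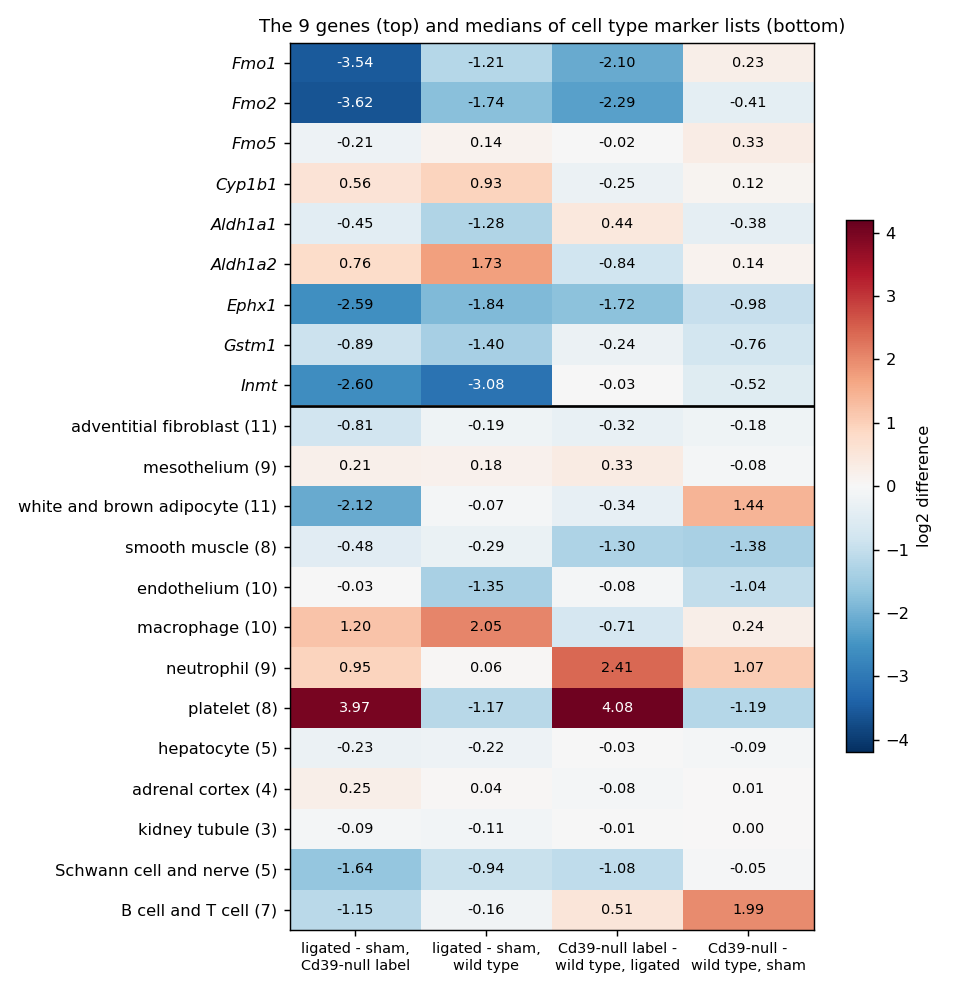
Log2 differences of the 9 genes (rows above the line) and median log2 differences of 13 cell type marker lists (rows below, number of markers kept in parentheses) in 4 comparisons (columns), coloured from blue (lower) to red (higher). Platelet markers are at 3.97 in the Cd39-null pair and -1.17 in the wild type pair, and adipocyte markers at -2.12 and -0.07, while Fmo1, Fmo2, Ephx1 and Inmt are negative in both.

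Relatives of the 9 genes were counted from lists of their families. Differences of Aldh1l2, Ephx3, Cyp4f18, Ces1d, Sult1e1, Abcc3, Ppara, Nqo1 and Slc7a11 in them involve at least 1 array at or under background and do not measure a fold. Over all genes kept, 10.9% were at least 2-fold higher and 5.8% lower in the Cd39-null pair. In the wild type pair these shares were 6.6% and 3.63%. Of 14 other aldehyde dehydrogenases kept, 2 were at least 2-fold higher and 1 lower in the Cd39-null pair, and 1 was higher and 0 lower in the wild type pair, with medians of 0.17 and 0.21, beside 0.03 and -0.01 over all genes kept. The higher ones were Aldh2, the mitochondrial enzyme that clears acetaldehyde, at 1.47 in the Cd39-null pair and 0.24 in the wild type pair, Aldh9a1 at 1.05 and 0.98, and the folate enzyme Aldh1l2 at 0.65 and 1.36. The lower one was Aldh6a1, at -1.22 in the Cd39-null pair and -0.23 in the wild type pair, beside -0.45 and -1.28 for Aldh1a1.

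Of 15 glutathione S-transferases kept besides Gstm1, 3 were at least 2-fold lower and 1 higher in the Cd39-null pair, where 5.8% and 10.9% of all genes kept were. In the wild type pair 1 was lower and 1 higher, where 3.63% and 6.6% of all genes kept were. Their medians were -0.80 and -0.36, beside 0.03 and -0.01 over all genes kept. Gsta4, which conjugates the lipid aldehyde 4-hydroxynonenal, was lower in both pairs, at -2.57 and -1.68. Gstp1, the pi-class form, was higher in both, at 1.07 and 1.44. Gsta3 differed by -2.06 and -0.92 and the mitochondrial and peroxisomal Gstk1 by -1.69 and -0.91. Alongside Ephx1, the soluble epoxide hydrolase Ephx2 differed by -2.25 in the Cd39-null pair and -0.30 in the wild type pair, and Ephx3 by -0.73 and -0.32.

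Other enzymes that add oxygen or reduce and split foreign compounds were counted too. Of 16 cytochromes P450 and partner proteins besides Cyp1b1, 2 were at least 2-fold higher and 1 lower in each pair. For these counts, the shares over all genes kept were 10.9% higher and 5.8% lower in the Cd39-null pair. They were 6.6% and 3.63% in the wild type pair. Cyb5r3, a reductase that feeds electrons to these enzymes, was higher in both at 1.81 and 1.60, and Cyp2e1, the ethanol-oxidising form, differed by -2.02 in the Cd39-null pair and -0.16 in the wild type pair. Cyp4f18 was higher in the Cd39-null pair at 3.28 and differed by 0.39 in the wild type pair. Among 22 carbonyl reductases, esterases and oxidases, 6 were lower and 1 higher in the Cd39-null pair, and 3 were lower and 2 higher in the wild type pair. The monoamine oxidase Maob was lower in both at -1.37 and -1.53, and the aldose reductase relative Akr1b8 was higher in both at 2.14 and 1.79. The carboxylesterase Ces1d differed by -3.80 and -0.96.

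The 4 methyltransferases kept besides Inmt, among them the nicotinamide enzyme Nnmt at -0.06 and 0.38 and the histamine enzyme Hnmt at -0.25 and -0.23, had 0 genes past 2-fold in either pair, where 16.7% of all genes kept were past it in the Cd39-null pair and 10.2% in the wild type pair. No glucuronosyltransferase was kept, as those with a probe set of their symbol alone were too dim. Of 7 sulfotransferases and enzymes that supply cofactors for sulfate or glucuronic acid transfer, 1 was higher and 0 lower in the Cd39-null pair. In the wild type pair 0 were higher and 1 lower. The lower one was the oestrogen sulfotransferase Sult1e1, which read 1.58, 2.13, 2.39 and 5.26 on the arrays in the order above and was over background on the wild type sham array alone. Of 13 transporters, 3 were higher and 0 lower in the Cd39-null pair, and 1 was higher and 1 lower in the wild type pair. Beside the sulfotransferase and transporter counts, 10.9% of all genes kept were higher and 5.8% lower in the Cd39-null pair. In the wild type pair 6.6% were higher and 3.63% lower. Abcc3, an exporter of conjugates, was the one higher in both, at 1.64 and 2.08, and the efflux pump Abcg2 differed by -0.87 and -1.63.

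For retinoic acid, the genes around Aldh1a1 and Aldh1a2 gave 5 higher and 2 lower of 16 in the Cd39-null pair, and 2 higher and 1 lower in the wild type pair. Over all genes kept, the shares were 10.9% and 5.8% in the Cd39-null pair and 6.6% and 3.63% in the wild type pair. Crabp1, which binds retinoic acid in the cytoplasm, was higher in both at 2.53 and 2.07, as was Dhrs3, which reduces retinaldehyde back to retinol, at 1.37 and 1.29. Adh1, an alcohol dehydrogenase that can oxidise retinol, was lower in both at -2.62 and -1.25. The plasma retinol carrier Rbp4 differed by -1.87 and 0.18, and the receptor Rara by 1.30 and 0.68.

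Of 9 receptors for foreign compounds and their partners, 0 were higher and 1 lower by 2-fold in the Cd39-null pair, and 0 were that far apart in the wild type pair, beside the same shares of 16.7% and 10.2%. Ahr, the aryl hydrocarbon receptor, differed by -0.26 and -0.36, its partner Arnt by 0.59 and 0.78, and the glucocorticoid receptor Nr3c1 by -0.59 and -0.94. Of the other known targets of Ahr, Cyp1a1, Cyp1a2, Ahrr and Aldh3a1 were too dim to be kept, and Nqo1 differed by 0.54 and -0.72 at 1.88 to 2.95. Of 8 targets listed, 6 had a probe set with their symbol alone, and the rest were not read. Among those 6, Cyp1b1 was the one well above background. Ppara, the fatty acid receptor, was the lower one at -2.19 in the Cd39-null pair, beside -0.42 in the wild type pair.

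Ephx1 and Gstm1 are also counted among targets of NRF2, the factor that answers oxidative stress, and other targets did not all share their direction. Of 16 others, 9 were at least 2-fold higher and 2 lower in the Cd39-null pair, and 4 were higher and 4 lower in the wild type pair, with medians of 1.20 and 0.10. Over all genes kept, 10.9% were higher and 5.8% lower in the Cd39-null pair, and 6.6% and 3.63% in the wild type pair. Hmox1, the heme-degrading oxygenase, was higher in both at 3.46 and 2.03, and so were the glutathione reductase Gsr at 2.89 and 1.21 and the pentose phosphate enzyme Pgd at 2.72 and 2.08. Me1, the cytosolic malic enzyme, was lower in both at -2.53 and -1.28. The cystine carrier Slc7a11 differed by 3.06 in the Cd39-null pair and 0.09 in the wild type pair.

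Genes most like these in profile were found by centred distance over the 4 arrays, a measure with few points. Nearest to Fmo2 was Ogn, the small leucine-rich proteoglycan osteoglycin, at 0.23, with values of 5.34, 8.76, 7.70 and 9.21 in the order above. It was the only gene within 0.5 of Fmo2 among 13273, and Chrna3 (0.52), Ecm2 (0.56), Fmo1 (0.56), Rtn1 (0.65) and Ephx1 (0.74) came next. The radius of 0.5 was the same for all profiles, so one with a wide range tends to have fewer genes within it. Over the 4 arrays Fmo2 had a range of 4.03 and Cyp1b1 one of 0.93, so these counts do not measure how rare a pattern is. Inmt had 0 genes within 0.5, and its nearest were Slc10a4 (0.53), Pkhd1l1 (0.64), Syt1 (0.67), Lrrn1 (0.72), Mab21l1 (0.80) and Lepr (0.82). Of these named genes, Chrna3, Syt1, Lrrn1, Mab21l1 and Lepr were under background on the array labelled Cd39-null, ligated. By contrast, Cyp1b1 had 1486 genes within 0.5, with Msto1 and Mov10 nearest at 0.04 each, then Strada, Oaz2, Uxs1 and Ube3b. The median profile of the 9 genes had 254 within 0.5, led by Kif1a, Cyp2j9, Fam135a, Syt17, Aqp1 and Foxc2.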

How the data were processed

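Total RNA of inferior vena cava was pooled from 4 mice per group, amplified as cDNA from 50 ng, and 3 µg of biotinylated cDNA went onto 1 whole-transcript array per group, per the labels' protocols. The authors deposited RMA values on the log2 scale for each probe set, computed with oligo according to the submitters' processing notes. Versions and the genome build were not given in the sources used here. Because RMA quantile normalises the arrays, a global shift in RNA would not show. The deposited probe set values still differed in spread between arrays. Background was 2.68 and 2.66 on the Cd39-null and wild type ligated arrays, and 2.97 and 2.94 on the sham arrays. Precision is limited by the number of arrays.

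Of 35556 probe sets, 21218 carried 1 symbol, 1881 several and 12457 none. The brightest probe set per gene was used as deposited (pandas 2.3.3), and genes with a mean log2 of at least 2.29, the 25th percentile, were kept. Comparisons are differences of log2 values with no test, called at 2-fold. Alternatives were quantile normalisation and cyclic loess (limma 3.58.1), aligned medians, other filters, the mean of probe sets, 1.5-fold, and other arrays. The calling steps were tested on simulated data, which checks the code and not the spread between mice.

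The members and lists were chosen with earlier results of these data known. Named were the 9 genes, up to 6 genes of each pathway list by the largest mean ligation difference, marker genes, Entpd1, and the 6 genes nearest in profile to the median of the 9, Fmo2, Inmt and Cyp1b1. Neighbours were named by place in the gene order of RefSeq (GRCm38.p6) after their values were seen.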

Additional observations from a re-analysis of the deposited data

Results flagged for a closer look

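Between genotypes, 5 of the 9 genes had opposite signs in ligated and sham veins, as did 45.6% of all genes kept, and the difference was not tested for any of them. Fmo1 differed by -2.10 between the array labelled Cd39-null, ligated, and the wild type ligated array, and by 0.23 between the sham arrays. The same values were -0.84 and 0.14 for Aldh1a2, 0.44 and -0.38 for Aldh1a1, -0.25 and 0.12 for Cyp1b1, and -0.02 and 0.33 for Fmo5. Both Aldh1a2 sham values were at or under background, so the sign of its 0.14 has no meaning. Fmo5 was also the one gene with opposite signs in the ligation difference, at -0.21 in the Cd39-null pair and 0.14 in the wild type pair, likewise not tested.

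Probe sets whose annotation gives several alpha-class glutathione S-transferase symbols entered no comparison of the report, since their signal cannot be given to 1 gene. There were 4 of these, and all stood above background on the array labelled Cd39-null, ligated, at 4.73, 4.61, 3.91 and 4.33, against 1.81 to 2.52 on the other 3 arrays, where all were under it. Their differences from the Cd39-null sham array were 2.64, 2.34, 1.60 and 1.81, while the wild type pair differed by -0.22, -0.21, -0.11 and -0.03. No control array showed such a signal, and no replicate of this array exists.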

How the results depend on the processing

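No value of the 9 genes past 2-fold changed sign or dropped under 2-fold in the other scalings, filters or probe set rule. Gstm1 passed it in the Cd39-null pair after quantile normalisation (-1.09) and cyclic loess (-1.05), where the deposited scaling gave -0.89. Taking the mean of both Cyp1b1 probe sets brought its wild type difference to 0.48, turned its sham genotype difference to -0.17 and its difference of ligation differences to 0.02. At 1.5-fold, 2 of the 9 genes differed by genotype after sham surgery and 5 in the difference of ligation differences. Over all genes kept, 1.5-fold gave 5145 genes in the Cd39-null pair (2355 at 2-fold), 3896 in the wild type pair (1444), 3192 by genotype after sham surgery (915), 2519 after ligation (885) and 4448 in the difference of ligation differences (1763). Of the calls, 65.3% were higher in the Cd39-null pair, against 51.4% after quantile normalisation and 53.9% after cyclic loess. For genotype after sham surgery 45.5% were higher, against 58.4% after cyclic loess. Medians near 0 changed sign with scaling for Fmo4, the sulfotransferase group, transporters, methyltransferases and the carbonyl reductase group. Without the array labelled Cd39-null, ligated, 7 of the 9 genes were 2-fold apart by ligation, against 6 by the mean of both pairs, Aldh1a1 being added at -1.28. No paired analysis was possible because each group is 1 array and the labels number no replicates. Dim values, such as Aldh1a2 in sham veins, allow only bounds.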

Other observations

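A probe set shared by 8 Ugt1a symbols, of the family that attaches glucuronic acid, read 4.19 on the array labelled Cd39-null, ligated, 3.47 on the Cd39-null sham array, 3.99 on the wild type ligated array and 3.27 on the wild type sham array. Ligated veins were higher by 0.71 in the Cd39-null pair and 0.72 in the wild type pair. Next to Aldh1a1 on chromosome 19, the annexin gene Anxa1 differed by 1.35 and 1.09 between ligated and sham veins, opposite in sign to Aldh1a1, and the close copy Aldh1a7 read 2.53 to 3.14, with both wild type values under background. Aqp1, a water channel gene near Inmt on chromosome 6, differed by -0.93 and -1.10.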
